A study of Homo sapiens with 6 samples.

Results

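Of the 3660 peaks that SF3B4 eCLIP gave in HEK293T cells, 550 (15.0%, 95% Wilson interval 13.9 to 16.2) lay in introns away from every 3′ splice site of their gene's basic transcript set, and these peaks are described here. Each peak was assigned, by its midpoint, to a same-strand gene of GENCODE release 29, protein-coding genes first. It was kept when the midpoint lay in no exon of that gene's basic transcripts and not within 60 nt upstream of any of their 3′ splice sites. The basic set holds the more complete transcripts of a gene, and the comprehensive set adds partial, retained-intron and other forms. Of the remaining SF3B4 peaks, 2688 (73.4%) had an intronic midpoint within those 60 nt and are called acceptor peaks, and 422 had the midpoint in an exon. The 550 peaks fell in 428 genes, and 349 of these genes held 1 such peak.

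SF3B4 is a subunit of SF3b, the part of the U2 small nuclear ribonucleoprotein (snRNP) that settles on the branch point of an intron, a short way upstream of the 3′ splice site or acceptor. U2 small nuclear RNA pairs with the branch point sequence there, while U2AF binds the polypyrimidine tract and the AG that ends the intron. Between a distant branch point and its acceptor there is usually no other AG, a stretch known as the AG exclusion zone.

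The series held 6 libraries: 2 with an antibody to SF3B4, 2 with an anti-HA antibody to G4PID, a designed ligase that biotinylates proteins at G-quadruplexes, and 2 inputs without antibody. All came from HEK293T, a human embryonic kidney line with the SV40 large T antigen. The treatment described for every sample was transfection with a G4PID or miniTurboID plasmid, 24 h of culture and 500 μM biotin for 30 min, so the labels do not settle which plasmid, if any, the SF3B4 and input cells received. In eCLIP, RNA crosslinked to a protein is recovered with an antibody and compared with input. The authors deposited 1 peak list per antibody, in which each peak has 1 log2 fold over input and 1 −log10 p-value. No value per library and no read count was in the lists used here, so the depth behind a peak is unknown, no spread between replicates can be given, and the tests have peaks or genes as units. A gene without a listed peak is not shown to be unbound.

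Several peaks lay just upstream of an AG that some annotated transcript, but no basic transcript of their gene, uses as an acceptor. Of these, 6 are printed here, the highest by fold with known sequence outside untranslated exons, as sense-strand DNA, 5′ to 3′. Each runs from the start of the peak to its end or to 3 bases past the acceptor, whichever is further. Capitals mark the acceptor AG and every CTNAC or TTNAC, the letters searched as a branch point motif on the sense strand. Positions are on hg38, and the bases were read from GENCODE transcripts that cover the intron.
RBM3 (chrX:48575732-48575817, + strand): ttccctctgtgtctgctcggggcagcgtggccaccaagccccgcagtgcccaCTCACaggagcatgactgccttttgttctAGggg
RPL6 (chr12:112407054-112407124, - strand): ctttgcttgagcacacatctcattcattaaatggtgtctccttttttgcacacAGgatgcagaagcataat
METTL16 (chr17:2415233-2415316, - strand): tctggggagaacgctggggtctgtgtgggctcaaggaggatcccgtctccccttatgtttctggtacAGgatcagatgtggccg
DDX17 (chr22:38490434-38490499, - strand): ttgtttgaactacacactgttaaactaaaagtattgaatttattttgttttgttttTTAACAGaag
YBX3 (chr12:10710786-10710839, - strand): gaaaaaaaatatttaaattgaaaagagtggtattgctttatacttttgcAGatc
PRR5 (chr22:44731598-44731681, + strand): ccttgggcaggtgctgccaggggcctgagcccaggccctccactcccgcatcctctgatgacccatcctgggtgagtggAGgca
In RBM3, a cold-induced RNA-binding protein, the peak midpoint was 50 nt upstream of this AG and 549 nt upstream of the next basic acceptor. In RPL6, a protein of the large ribosomal subunit, the corresponding distances were 20 and 199 nt. DDX17, a DEAD-box RNA helicase, had its midpoint 37 nt from the AG shown and 2358 nt from a basic acceptor. METTL16, the methyltransferase that modifies U6 snRNA, had no basic acceptor downstream of its peak at all. In PRR5 the midpoint was 52 nt from the AG shown and 103 nt from a basic acceptor. The letters of the motif were found in the RBM3 and DDX17 sequences, and in DDX17 they stood directly before the AG. Whether such letters serve as a branch point was not tested.

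Where each peak lay was read from the comprehensive transcripts, and the 550 peaks were put in the first class that applied. A same-strand small RNA gene was overlapped by 12 peaks (2.18%). An acceptor of a comprehensive transcript lay within 60 nt downstream of 100 midpoints (18.2%, interval 15.2 to 21.6). These acceptors and their transcripts are called non-basic here because the basic set of the peak's own gene lacks them. The basic set of another same-strand gene was not left out. A further 196 midpoints (35.6%, 31.7 to 39.7) lay in an exon of a comprehensive transcript, mostly a retained-intron form. Of those left, 9 had a 5′ splice site within 60 nt, 144 (26.2%, 22.7 to 30.0) had a basic acceptor 61 to 150 nt downstream, and 89 (16.2%, 13.3 to 19.5) were left as remaining intron.

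The host introns were set beside these classes as a description, since the peaks and the bases belong to the same introns and no test was made. Of the 550 peaks, 507 lay in a basic intron. For each of those introns, the share of the bases that could have held such a midpoint was computed per class and averaged over peaks. Acceptors of non-basic transcripts held 13.2% of the 507 peaks and 2.40% of the bases. What earlier classes left of the stretch 61 to 150 nt upstream of a basic acceptor held 28.4% and 7.79%. Small RNA genes held 2.37% and 0.202%. Exons of other transcripts held 37.3% of the peaks and 37.2% of the bases, so the 2 shares of that class were close. This does not describe where in those exons the peaks lay. Of all 550 peaks, 276 had a basic acceptor 61 to 150 nt downstream, and 115 of these were counted in the exon class. The neighbourhood of 5′ splice sites held 1.78% and 7.02%, and remaining intron held 17.0% and 45.4%.

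**Figure D1:**
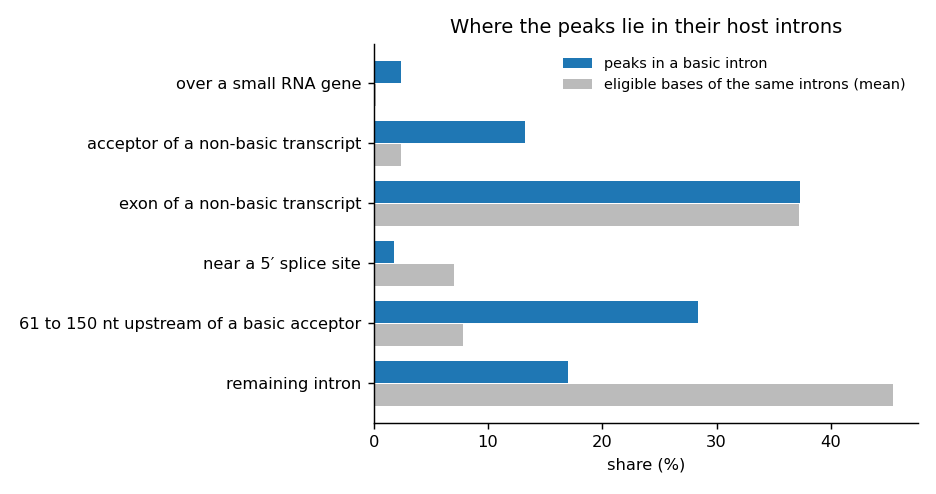
Share of the 507 peaks in a basic intron by class (blue bars) and the mean share of eligible bases of the same introns (grey bars), in percent. Each peak and base is counted in the first class that applies. The blue bar exceeds the grey one for acceptors of non-basic transcripts (13.2% and 2.40%). It also does for what earlier classes left of the stretch 61 to 150 nt upstream of a basic acceptor (28.4% and 7.79%). It is shorter for remaining intron (17.0% and 45.4%).

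The median log2 fold over input of these peaks was 3.97 (quartiles 3.53 and 4.58, maximum 7.26), against 3.93 for acceptor peaks and 3.83 for exon peaks. A log2 fold of 5 or more was listed for 64 of 550 peaks (11.6%) and for 297 of 2688 acceptor peaks (11.0%), an odds ratio of 1.06 (two-sided Fisher's exact test, adjusted p = 0.7100 over 8 tests by Benjamini and Hochberg). That ratio fell to 0.858 among peaks with a −log10 p of 10 or more, also without passing the test. The median width was 72 nt, and 69 nt for acceptor peaks. The host intron was longer, with a median of 949 nt against 560 nt. Within it, 361 of the 507 peaks (71.2%) were nearer to the 3′ end.

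The 12 peaks with the highest fold were spread over several classes. AC024901.1, a lincRNA, led with a log2 fold of 7.26, followed by a U2 copy in CCDC200 at 6.91 and EEPD1, a protein of DNA repair, at 6.81. A second CCDC200 peak had 6.73, RUVBL1, an AAA+ ATPase of chromatin remodelling complexes, had 6.65, and RPRD1A, which binds the tail of RNA polymerase II, had 6.48. The others were ELMO1 at 6.34, TMEM222 at 6.33, TREX2 at 5.98, RBM3 at 5.90, RPL6 at 5.79 and DDX11 at 5.71. Of these 12, 4 overlapped a small RNA gene and 4 were in remaining intron.

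**Figure D2:**
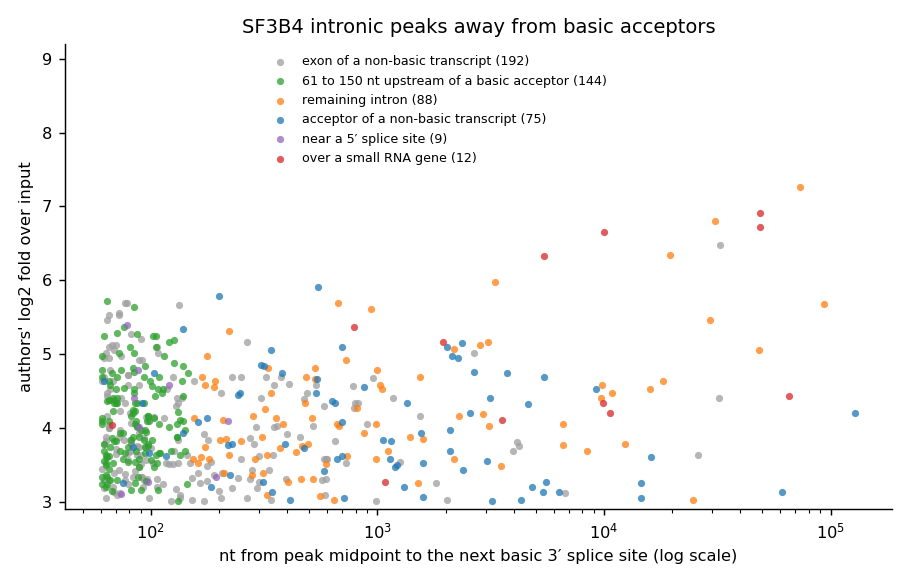
The authors' log2 fold over input of each peak (vertical axis) against the distance in nt from its midpoint to the next basic 3′ splice site (horizontal log axis), coloured by class, with the number of peaks drawn in brackets. The 30 peaks without a basic acceptor downstream are not drawn. The points crowd just beyond 60 nt, and those above a fold of 6 lie in the right part of the plot, far from a basic acceptor.

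The 100 peaks at acceptors outside their gene's basic set had midpoints a median of 25.5 nt upstream of the acceptor (quartiles 14.75 and 36.25). For the 2688 acceptor peaks the median was 30 nt (17 and 38). Both sets were defined by a distance of at most 60 nt, which bounds these medians, and the positions were not tested against each other. At 31 to 35 nt, where acceptor peaks were most frequent (16.6%), 9 of the 100 lay, and at 11 to 15 nt there were 17 of the 100 and 8.71% of the acceptor peaks. The acceptor belonged to the peak's own gene in 91 cases and to another same-strand gene alone in 9. It opened an internal exon in 76 cases. Transcripts typed as processed transcript used 51 of these acceptors, nonsense-mediated decay forms 51, protein-coding forms 26 and retained-intron forms 23, and an acceptor could be used by several types. Nonsense-mediated decay or processed transcripts used 81 of the 100. Where the sequence was known, the best AG in the 60 nt after the midpoint scored at or above 2.44 for 44 of 58 peaks. That score was the 25th percentile of annotated basic acceptors on a log-odds weight matrix of the last 20 intron and first 3 exon bases. The best AG was not always the annotated acceptor. For PRR5 the best score was -2.85, at an AG 5 nt from the midpoint and not the one printed above.

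**Figure D3:**
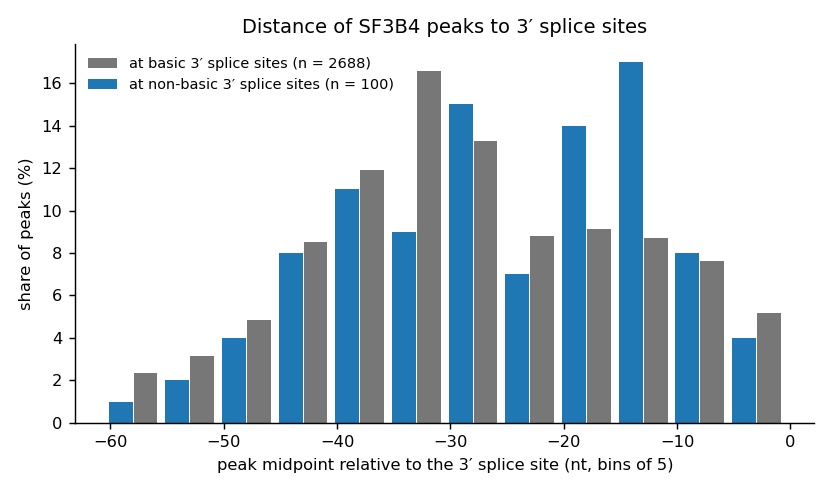
Share of peaks in percent (vertical axis) by position of the peak midpoint relative to the 3′ splice site in bins of 5 nt (horizontal axis), for 2688 acceptor peaks at basic sites (grey) and 100 peaks at non-basic sites (blue). Non-basic sites are acceptors outside the basic set of the peak's own gene. Both sets spread over the whole 60 nt, with the tallest grey bar at 31 to 35 nt (16.6%) and the tallest blue bar at 11 to 15 nt (17.0%).

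By fold, RBM3 (5.90) and RPL6 (5.79) led this class. KHDRBS1, a splicing regulator also known as Sam68, followed at chr1:32045284-32045369 with a fold of 5.48 and a midpoint 5 nt from the acceptor. GGT7, of the gamma-glutamyltransferase family, had 5.34 at chr20:34850147-34850251, only 2 nt from it. The peaks of METTL16, DDX17 and YBX3, a cold-shock domain protein, had 5.17, 5.15 and 5.09. TAF1D, a subunit of the RNA polymerase I factor SL1, held 5 of the 100 peaks, each 11 to 41 nt upstream of an acceptor of its nonsense-mediated decay transcripts and none with a basic acceptor downstream. Their folds ran from 3.27 to 4.61. TIAL1, an RNA-binding protein of alternative splicing and stress granules, held 3, at 12, 37 and 7 nt from an acceptor and with folds of 4.66, 4.55 and 4.08. SNRNP70, the U1-70K protein of the U1 snRNP, had 1 at 34 nt with a fold of 4.20.

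The distance to the next basic acceptor showed how many peaks lay just past the 60-nt limit. Of the 550, 79 midpoints were 61 to 70 nt upstream, 41 were 71 to 80, 85 were 81 to 100 and 71 were 101 to 150 nt upstream. Beyond that, 62 were at 151 to 300 nt, 42 at 301 to 500, 49 at 501 to 1000, and 91 further still, while 30 had no basic acceptor downstream. On either side of the limit, 147 acceptor peaks at 51 to 60 nt had a median fold of 4.20 and a median width of 78 nt, and the 79 peaks at 61 to 70 nt had 4.04 and 91 nt. Part of the peak reached into the 60 nt for 176 of the 550, and 34 touched a basic exon. Of the 276 peaks with a basic acceptor at 61 to 150 nt, 21 had an acceptor peak at the same site and 255 did not.

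In the class 61 to 150 nt upstream, DDX11, a DNA helicase, had the highest fold, 5.71, 64 nt from the acceptor at chr12:31102138-31102221. DDX12P, an unprocessed pseudogene copy of the same helicase, held 4 peaks of its own, 3 in this class with folds of 3.56 to 3.95 and 1 in remaining intron with 4.55, and reads of such near-identical genes may have been split or shared between them. ZNF512B, a zinc finger protein, had 5.64 at 84 nt (chr20:63967532-63967683). TSC2, the tuberin subunit of the complex that restrains mTORC1, had 4 peaks, of which 3 were in this class at 76, 62 and 62 nt with folds of 5.37, 3.69 and 3.55. KHSRP, a KH-type splicing regulator, had 2 here, with folds of 5.28 and 4.53 at 71 and 107 nt, and 1 more near a 5′ splice site. PCNT, a centrosomal scaffold protein, had 4, all in this class, at 63 to 127 nt with folds of 3.14 to 5.18.

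Among basic acceptors with known sequence, long AG-free stretches were more frequent where the peak lay further out. This comparison and its threshold of 50 nt were chosen after the data had been seen, and 4 thresholds were tried. For each basic acceptor with known sequence, the bases between its AG and the nearest AG upstream were counted over 160 nt. Only 2 of the 144 peaks in the class 61 to 150 nt upstream had known sequence. The comparison therefore rests mostly on peaks at that distance that were counted in exons of other transcripts. An AG-free stretch of at least 50 nt was found at 27 of 105 acceptors with a peak 61 to 150 nt upstream (25.7%, interval 18.3 to 34.8) and at 126 of 1015 with an acceptor peak (12.4%, 10.5 to 14.6). The odds ratio was 2.44 (Fisher's exact test, p = 0.0019 adjusted over the 4 thresholds). At 40 nt the shares were 37.1% and 23.3% (ratio 1.95, Fisher's exact test, adjusted p = 0.0036), and at 60 nt 17.1% and 7.19% (ratio 2.67, adjusted p = 0.0024). At 30 nt they were 54.3% and 46.8%, which did not pass (ratio 1.35, Fisher's exact test, adjusted p = 0.1516). The medians, 30 and 28 nt, were close, so the difference lay among the long stretches. It did not hold with peaks kept only when the whole peak was outside the 60 nt (5 of 35 acceptors, ratio 1.18, Fisher's exact test, unadjusted p = 0.7931), nor with 1 peak per gene (ratio 1.92, unadjusted p = 0.0937).

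Of 114 such peaks with known sequence, 12 had their midpoint inside the AG-free stretch, and 5 of these are shown, chosen by fold among those outside small RNA genes and untranslated exons. They run from the start of the peak to its end or to 3 bases past the basic acceptor, with the acceptor AG and every CTNAC or TTNAC in capitals, as sense-strand DNA on hg38 from GENCODE transcripts.
NELFE (chr6:31953829-31953931, - strand): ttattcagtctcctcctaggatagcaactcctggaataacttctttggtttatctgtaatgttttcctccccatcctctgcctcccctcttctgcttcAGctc
AMPD2 (chr1:109628957-109629137, + strand): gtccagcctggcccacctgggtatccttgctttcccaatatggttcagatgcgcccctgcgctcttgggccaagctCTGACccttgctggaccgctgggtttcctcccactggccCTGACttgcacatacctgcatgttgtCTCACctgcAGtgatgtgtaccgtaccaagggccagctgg
PHKA2 (chrX:18895189-18895282, - strand): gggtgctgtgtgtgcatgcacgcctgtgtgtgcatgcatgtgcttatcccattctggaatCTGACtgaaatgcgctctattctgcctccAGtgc
YTHDF2 (chr1:28737559-28737660, + strand): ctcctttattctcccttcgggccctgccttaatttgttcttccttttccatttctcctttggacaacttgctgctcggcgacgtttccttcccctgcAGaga
HELLS (chr10:94571280-94571390, + strand): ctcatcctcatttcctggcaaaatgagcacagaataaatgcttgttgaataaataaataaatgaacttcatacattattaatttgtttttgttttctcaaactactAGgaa
In NELFE, the RNA-binding subunit of the negative elongation factor, the AG-free stretch was 74 nt, the fold 5.55 and the distance from midpoint to acceptor 72 nt, with no motif in the bases shown. The longest of the 5 was in YTHDF2, a reader of N6-methyladenosine, with 139 nt, a fold of 3.24 and a distance of 79 nt. AMPD2, an AMP deaminase, had 3 motifs and 76 nt. PHKA2, a subunit of phosphorylase kinase, had 1 motif and 88 nt. HELLS, a chromatin remodelling helicase, had no motif and 74 nt. Others of the 12 were in OSGEP, HNRNPH1, RXRB, DDX17, DDX5 and SRSF11, with stretches of 70 to 130 nt.

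**Figure D4:**
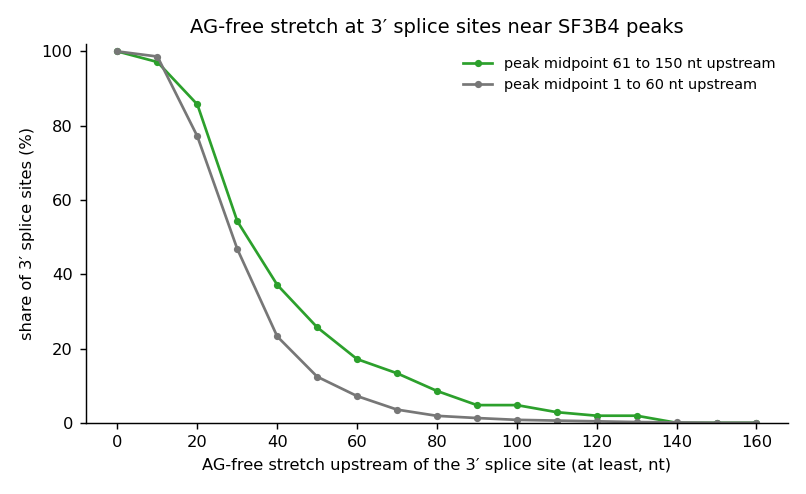
Share of basic 3′ splice sites in percent (vertical axis) whose AG-free stretch is at least the length on the horizontal axis in nt, for 105 sites with a peak midpoint 61 to 150 nt upstream (green) and 1015 sites with one 1 to 60 nt upstream (grey). The green line runs above the grey one from 20 to 130 nt, with 25.7% and 12.4% at 50 nt.

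Branch point letters were less frequent in these peaks than in acceptor peaks. CTNAC or TTNAC occurred on the sense strand in 95 of 260 peaks with known sequence (36.5%, interval 30.9 to 42.5) and in 568 of 1145 acceptor peaks (49.6%, 46.7 to 52.5), an odds ratio of 0.585 by Fisher's exact test (p = 0.0002972 adjusted over 8 tests). Among all 1742 SF3B4 peaks with known sequence the share was 47.1%. Exon peaks held the letters in 158 of 337 cases (46.9%), at a median width of 85 nt. The median widths of the peaks compared were 71 and 73 nt. Acceptor peaks were by rule within 60 nt upstream of a basic acceptor. The letters were not searched in intron sequence outside peaks, so how often they occur without a peak was not tested. Known sequence came from transcripts that cover the intron, and 186 of the 260 peaks were in the exon class. Peaks at acceptors outside their gene's basic set held the letters in 24 of 58 cases (41.4%). The call was lost with a −log10 p of at least 10 (0.725), with a fold of at least 4 (0.680) and with 1 peak per gene (0.737).

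A stretch that resembles an acceptor was looked for downstream of the midpoints with no annotated acceptor within 60 nt. Of 201 such peaks, 57 (28.4%) had an AG scoring at or above the 25th percentile of basic acceptors in the following 60 nt, against 186 of 334 exon peaks (55.7%; ratio 0.315, Fisher's exact test, adjusted p = 3.26e-09). The exon peaks included ones that themselves precede an annotated acceptor. Without those, a comparison added after the data had been seen, 43 of 159 exon peaks (27.0%) had such an AG, and the difference did not pass (ratio 1.07, Fisher's exact test, p = 0.8134). The windows that ranked 1 and 3 to 6 by score are printed, 20 bases before and 3 after the cut, with the AG in capitals. The one ranked 2, in KAT2A (9.92), touches an annotated untranslated exon and is left out.
COMMD4 (chr15:75338535-75338557, + strand): cctcccttccttctttccAGcct
LAMTOR5-AS1 (chr1:110363750-110363772, + strand): tgcagtcttctttctttcAGgtc
MUM1 (chr19:1373466-1373488, + strand): ttcctcccctctttccacAGccc
ATM (chr11:108287397-108287419, + strand): tttttcctcttagtctacAGgtt
CHKA (chr11:68081846-68081868, - strand): tacactccctgttcttgcAGgtt
Their log-odds scores were 9.94 in COMMD4, 9.36 in LAMTOR5-AS1, 9.01 in MUM1, 8.95 in ATM, the DNA damage kinase, and 8.23 in CHKA, a choline kinase. The corresponding midpoints lay 41, 15, 47, 20 and 6 nt upstream of the AG. The median basic acceptor scored 4.70. A score describes letters, and no transcript used here ends an intron at these sites.

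Peaks in exons of other transcripts, 196 in all, were mostly in introns that some transcript keeps. Retained-intron transcripts covered 148 midpoints, processed transcripts 41 and nonsense-mediated decay forms 27, with overlaps between these types. The whole host intron was part of a transcript's exon for 107. Such whole-intron retention was about as common among all 550 peaks (127, 23.1%) as among acceptor peaks (662 of 2688, 24.6%), a description without a test. A basic acceptor lay 61 to 150 nt downstream of 115 of the 196. RPRD1A had the highest fold, 6.48, in an intron of 33599 nt (chr18:36025622-36025732). TCF25 and HPS4, a subunit of the BLOC-3 complex of lysosome-related organelles, each had 5.69, at 78 and 77 nt from a basic acceptor. GGA3, a clathrin adaptor of the Golgi, had 5.66 at 133 nt, and HNRNPL, a splicing regulator, had 5.53 at 72 nt. DUS1L, a tRNA dihydrouridine synthase, held 4 peaks of this class with folds of 5.53, 3.76, 3.56 and 3.02.

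Small RNA genes in introns were overlapped by 12 of 550 peaks (2.18%, interval 1.25 to 3.77) and by 13 of 2688 acceptor peaks (0.484%, 0.283 to 0.826), an odds ratio of 4.59 by Fisher's exact test (adjusted p = 0.0005004). The kinds of RNA differed as a count: 9 of the 12 were over U2 copies, 1 over a U6 copy and 2 over microRNA genes, while the 13 were over 11 microRNA genes and 2 miscellaneous RNA genes. Acceptor peaks overlapped 0 U2 copies, and neither set overlapped a snoRNA gene. By rule acceptor peaks were within 60 nt of a basic acceptor, while the U2 peaks lay 790 to 65793 nt from the next one. How many small RNA genes lie within reach of each group was not counted, so the ratio cannot be told apart from the rule. With a window of 40 nt the same 12 peaks stood among 1056, and the ratio was 1.92 without passing the test. The U2 peaks fell on 7 copies of 143 to 192 nt in 6 host genes, with folds of 4.10 to 6.91. U2 snRNA has many near-identical copies, and the sources used here do not give the handling of multiply mapping reads, so a peak on such a copy can hold reads of another copy or of U2 itself. Whether a copy listed here is itself an active U2 gene was not tested.

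The peak sequences on these copies show which part of the RNA was listed. Capitals mark GTAGTA, the letters of U2 that pair with the branch point, and ATTTTTGG, the U-rich letters of its Sm site, each searched on the sense strand as DNA on hg38.
CCDC200 U2 copy (chr17:43273215-43273246, - strand): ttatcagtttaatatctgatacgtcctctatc
CCDC200 U2 copy (chr17:43273172-43273211, - strand): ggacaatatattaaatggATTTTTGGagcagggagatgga
RUVBL1 RNU2-37P (chr3:128075215-128075249, - strand): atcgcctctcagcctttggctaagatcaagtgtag
TMEM222 RNU6-48P (chr1:27325301-27325325, + strand): gattcgtgaagcgttccatattttt
GSKIP RNU2-33P (chr14:96384715-96384752, + strand): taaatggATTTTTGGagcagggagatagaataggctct
RUBCNL RNU2-6P (chr13:46374501-46374569, - strand): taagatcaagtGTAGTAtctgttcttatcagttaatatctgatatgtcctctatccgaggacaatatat
CCDC200 U2 copy (chr17:43290293-43290391, - strand): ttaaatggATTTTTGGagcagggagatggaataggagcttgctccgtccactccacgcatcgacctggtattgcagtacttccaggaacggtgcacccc
RUVBL1 RNU2-37P (chr3:128075136-128075171, - strand): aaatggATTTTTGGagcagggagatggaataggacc
KIF24 RNU2-50P (chr9:34282590-34282616, - strand): aatggATTTTTGGaacagggagatgga
IFT88 RNU2-7P (chr13:20612237-20612270, + strand): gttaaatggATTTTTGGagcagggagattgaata
ATTTTTGG was inside 6 of the 9 peaks and GTAGTA inside 1, that of RUBCNL. GTAGTA was not found anywhere in RNU2-37P or RNU2-33P, so the peaks on those copies could not hold it. Of the 1742 SF3B4 peaks with known sequence, 17 (0.976%) held ATTTTTGG and 16 (0.918%) held GTAGTA. The RUVBL1 copy had 2 peaks, over bases 1 to 35 and 79 to 114 of its 177, and 1 CCDC200 copy had 2, over bases 47 to 78 and 82 to 121 of its 192. The U6 copy in TMEM222 was covered over its last 25 bases with a fold of 6.33. The microRNA overlaps were those of MIR3064 in DDX5 (4.04) and, by 1 nt at its first base, of MIR222 in MIR222HG (3.27).

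Introns that carry a snoRNA gene held few of these peaks although no peak lay on the snoRNA. They were the hosts of 4 peaks (0.727%), in NOP56, SNX5, RANBP1 and PRRC2B at 71 to 1331 nt from the snoRNA, and of 55 acceptor peaks (2.05%). NOP56, itself a core protein of C/D box snoRNPs, had its peak 71 nt from SNORD86 with a fold of 3.30.

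A 5′ splice site of a comprehensive transcript lay within 60 nt of 44 of the 550 midpoints, and 29 of these were downstream of it. Of the 44, 26 were counted in exons of other transcripts and 9 at acceptors of non-basic transcripts, which left 9 in a class of their own. Among these was UBA1, the ubiquitin-activating enzyme, with a fold of 5.39 and its midpoint 34 nt into the intron (chrX:47201381-47201419). MYBBP1A, a nucleolar protein, had 4.58 and WDR24, of the GATOR2 complex, 4.40, at 39 and 4 nt into introns of 158 and 87 nt. GPI, a glycolytic isomerase, had 4.79 at 21 nt from a 5′ splice site that is not the start of its basic intron of 1903 nt. The basic acceptor was 74 to 218 nt downstream of these 9.

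The 89 peaks in remaining intron held the most isolated sites. A basic acceptor lay more than 500 nt downstream of 50 and 151 to 500 nt downstream of 38, and 1 had none. For 11 the distance was over 10000 nt. These distant peaks were often narrow: 6 of the 11 were at most 30 nt wide, compared with 42 of all 550 and 193 of 2688 acceptor peaks. Of the 13 peaks of this class with a fold of 5 or more, 9 were that narrow. AC024901.1 (chr12:19850141-19850163) was 23 nt wide and 73046 nt from a basic acceptor. EEPD1 (chr7:36208006-36208028) was 23 nt wide at 30968 nt, and ELMO1, a partner of DOCK exchange factors, was 29 nt wide at 19581 nt. TREX2, a 3′ exonuclease, was 45 nt wide at 3295 nt with a fold of 5.98. Only 3 of the 89 had known sequence, so what these sites hold could not be read here.

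These peaks had neighbours more often than acceptor peaks did. Another SF3B4 peak of the same strand lay within 100 nt of 81 of 550 (14.7%, interval 12.01 to 17.9) and of 120 of 2688 acceptor peaks (4.46%, 3.75 to 5.31), an odds ratio of 3.70 by Fisher's exact test (adjusted p = 3.087e-15). The nearest neighbour was an acceptor peak for 39 of the 81, another of the 550 for 36 and an exon peak for 6. For the 120 acceptor peaks it was an acceptor peak for 68, one of the 550 for 40 and an exon peak for 12. Pairs between both sets count in each set over unequal totals. Without them, in a comparison added after the data had been seen, 46 of 550 (8.36%) and 81 of 2688 (3.01%) had a neighbour, a ratio of 2.94 (Fisher's exact test, unadjusted p = 9.226e-08). By rule the midpoints of acceptor peaks were confined to a short window upstream of basic acceptors, whereas the 550 could lie elsewhere in introns. The comparison without those pairs kept this rule. How far the window limits the room for a neighbour was not tested, so neither ratio can be told apart from the rule. Neighbouring peaks are not independent, and the sources used here do not say whether the caller split broader regions. Genes with such a peak also had an acceptor peak in 227 of 388 cases (58.5%), against 125 of 318 genes with an exon peak (39.3%), genes with both left out (ratio 2.18, Fisher's exact test, adjusted p = 1.05e-06). That call was lost with a −log10 p of at least 10 (ratio 1.57, Fisher's exact test, adjusted p = 0.0972) and with comprehensive transcripts (ratio 1.44, Fisher's exact test, adjusted p = 0.0832). The 550 peaks were by rule outside basic exons, whereas a gene with an exon peak may have few introns or none. The number of introns was not matched, and its part in the ratio of 2.18 was not tested.

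Some genes gathered several of these peaks: 50 held 2 and 29 held 3 or more. FBRSL1 held the most, 6, with folds of 3.08 to 3.86 spread over remaining intron, other transcripts' exons, a 5′ splice site and the stretch upstream of an acceptor. SRRM2, a large serine- and arginine-rich protein of the spliceosome, held 5 with folds of 3.01 to 4.04, of which 4 were in exons of other transcripts. SRSF11, RPL6, RPL12, DUS1L, TSC2, PCNT and DDX12P held 4 each. In RPL12 all 4 were in exons of other transcripts, at 177 to 951 nt from a basic acceptor, with folds of 3.49 to 4.68.

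**Figure D5:**
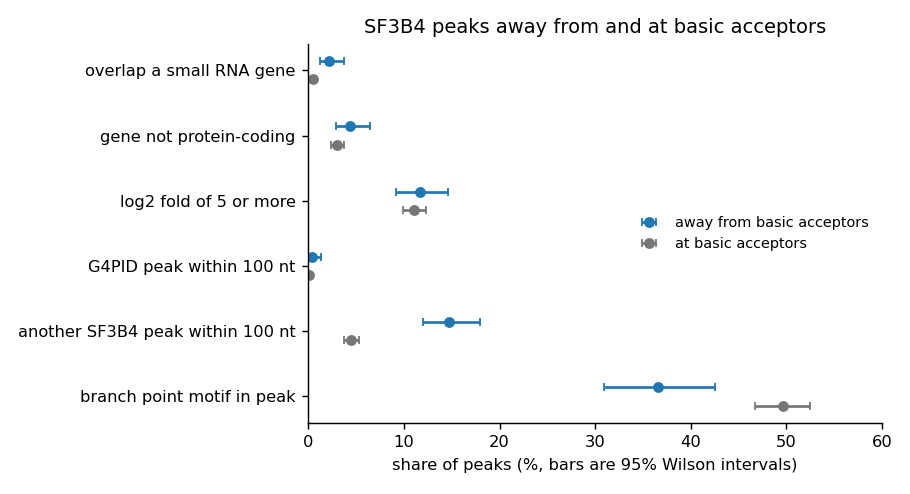
Share of peaks in percent with 95% Wilson intervals (horizontal axis) for 6 measures (rows), in the 550 peaks away from basic acceptors (blue) and the 2688 acceptor peaks (grey), and for the motif in the 260 and 1145 of them with known sequence. The intervals lie apart for small RNA genes, neighbouring peaks and the branch point motif, and overlap for the gene type, a log2 fold of 5 or more and G4PID peaks nearby.

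Most host genes were protein-coding. The gene was of another type for 24 of 550 peaks (4.36%) and 81 of 2688 acceptor peaks (3.01%), a ratio of 1.47 that did not pass Fisher's exact test (adjusted p = 0.1284). With comprehensive transcripts in the rule, 22 of 262 peaks were in such genes and the ratio was 2.71 (Fisher's exact test, adjusted p = 0.0012). G4PID peaks were rarely near: 2 of the 550 had 1 within 100 nt, in SNRNP70 at 92 nt and MIR222HG at 65 nt, and 1 acceptor peak did (ratio 9.81, Fisher's exact test, adjusted p = 0.1022). The G4PID list held 270 peaks.

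Across families of RNA-processing genes, 410 of 19940 protein-coding genes (2.06%) held at least 1 of these peaks and 1468 (7.36%) held an acceptor peak, and family counts are set beside those shares as a description. Among SR and TRA2 genes, activators of splicing, 5 of 14 held one (6 of 14 an acceptor peak), led by SRSF6 with a fold of 4.36 at an acceptor of a non-basic transcript and by SRSF11 with 4 peaks of up to 4.18. Among hnRNP genes 4 of 27 did (15 with an acceptor peak): HNRNPL with up to 5.53, HNRNPH1 with 4.64, HNRNPU with 4.05 and HNRNPUL1 with 3.64. Of 86 ribosomal protein genes, paralogues included, 7 did and 58 had an acceptor peak, with RPL6 (5.79) and RPL12 (4.68) highest. Of 22 genes of SF3b, SF3a and U2 partners, 4 did and 10 had an acceptor peak: CHERP (3.76), SNRPA1 (3.64), PUF60 (3.64) and U2AF2 (3.58). DEAD and DEAH helicases had 7 of 55, with DDX11 (5.71) and DDX17 (5.15) highest, and 14 with an acceptor peak. Of 256 snoRNA host genes, 23 held one, led by RAB3GAP2 (5.69), TBRG4 (5.24) and MED24 (5.24), and 91 had an acceptor peak. Expression of these genes was not tested here.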

How the data were processed

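SF3B4 and G4PID peaks came from eCLIP of HEK293T cells, with 2 libraries per antibody and 2 inputs. The submitters' processing notes name STAR 2.7.0d, cutadapt 3.4 and both hg38 and hg19. Positions were read as hg38, since 73.4% of SF3B4 peaks then lie just upstream of annotated acceptors. The sources used here do not give the caller, the filters, the treatment of multiply mapping reads or how libraries were joined. The authors deposited, without a header, a value read as the −log10 p-value and a value read as the log2 fold over input. This reading rests on the usual column order of eCLIP peaks and on the smallest fold of 3.00. The most frequent −log10 value, 15.7, was shared by 48 of the 550 peaks, so it ranks them poorly.

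Sequence was rebuilt from 206694 GENCODE transcripts (0 disagreeing bases), since no genome sequence was used here, and covered 260 of the 550 peaks. Acceptors were scored with a weight matrix from 34530 basic acceptors. Shares were compared with two-sided Fisher's exact tests and Benjamini-Hochberg adjustment over 8 tests, at a threshold of 0.05, and Wilson intervals cover counting error only. The tests were tried on simulated data. Alternatives changed the window, the transcript set, the genes used, the position rule, the authors' values and the units. The named genes were the 12 highest folds, the 4 highest of each class, genes with at least 3 such peaks, hosts of small RNA genes and the leaders of 6 gene lists. Genes shown for their AG-free or acceptor-like sequence, and PRR5, SNRNP70 and NOP56, were chosen after their values were seen. 1 peak with a long AG-free stretch is not reported here. The peaks, lists and tests were chosen with earlier results of these data known. Computations used Python 3.11.15, numpy 2.4.6, scipy 1.17.1 and matplotlib 3.10.9.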

Additional observations from a re-analysis of the deposited data

How the results depend on the processing

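Of 88 alternatives over 10 results, 66 kept the direction and the side of the threshold or stayed within the counting interval. The share of SF3B4 peaks that met the rule moved most with the rule itself, from 15.0% to 28.9% with a window of 40 nt, 9.43% with 100 nt, 7.16% with comprehensive transcripts and 10.1% with the whole peak, and to 16.2% with a −log10 p of at least 10 and 13.1% with 1 peak per gene. As odds ratios, the branch point motif no longer passed at 0.725 (−log10 p of at least 10), 0.737 (1 peak per gene) and 0.680 (log2 fold of at least 4), nor did small RNA genes at 1.92 (40 nt). The acceptor peak in the same gene no longer passed at 1.57 (−log10 p of at least 10) and 1.44 (comprehensive transcripts). Gene types other than protein-coding passed at 2.71 with comprehensive transcripts. Direction changed for a log2 fold of 5 or more, at 0.858 (−log10 p of at least 10) and 0.927 (whole peak), for nearby G4PID peaks, at 0 (log2 fold of at least 4, with 0 of 272 peaks), and for acceptor-like sequence, at 1.07 (exon peaks without an annotated acceptor, added after the data had been seen). None of these 4 passed the test. The AG-free stretch, also added then with all its alternatives, no longer passed at 1.35 (30 nt), 1.92 (1 peak per gene), 2.21 (window of 100 nt), 8.50 (comprehensive transcripts, 3 acceptors) and 1.18 (whole peak). With the 8 acceptors that had both kinds of peak kept in, it was 2.24. The cause of these changes was not tested. The clustering of peaks passed under every alternative tried, each of which kept the midpoints of acceptor peaks within a set window. Where peaks were filtered by the authors' values or to 1 per gene, the removed peaks still counted as neighbours. Those alternatives therefore do not show how clustering depends on such filters. 4 alternatives gave no value: nearby G4PID peaks with comprehensive transcripts, with 1 peak per gene and with an overlap of 1 nt, and the acceptor peak in the same gene with 1 peak per gene. No paired analysis was possible because each antibody has 1 merged peak list with no values per library, and for the same reason no replicate could be left out. Without read counts, what depth limits cannot be given.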
